A study of Mus musculus with 8 samples.

Results

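The γ and δ chain gene segments of the T-cell receptor were compared between endogenous CD8+ T cells retained for high IL-18Rα (enriched) and the cells that passed the same magnetic column (flow-through). Members were all entries whose name begins with Trdv, Trdd, Trdj, Trdc, Trgv, Trgj, Trgc or Tcrg, which took 25 of the 47493 entries of the deposited table. There were 14 γ segments, of which 6 were V, 4 J and 4 C, and 11 δ segments, of which 6 were V, 2 D, 2 J and 1 C. The rule used names alone and no measured value.

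Cells came from 4 female C57BL/6 mice that were 6 to 8 weeks old, each of which gave 1 library of each fraction (n = 4 per fraction). Mice of both fractions carried 200000 B16-F10 melanoma cells, received 300 mg/kg cyclophosphamide on day 3, 2000000 Pmel-1 T cells on day 5 with 10000 IU of IL-2 daily for 3 days, and 200 μg of the CD4-depleting antibody GK1.5 weekly from day 10 for 3 weeks. Lymph node and spleen cells were collected on day 25, CD8+ cells were left by negative selection, and the Thy1.1+ Pmel-1 cells were removed with beads. The flow-through was depleted on a column and is not a sorted IL-18Rα-negative population, and no library without these treatments was compared here. Libraries with the same replicate number were taken as from 1 mouse, and mouse numbers below are these replicate numbers.

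The γ and δ chains form the receptor of γδ T cells, a lineage apart from the αβ T cells that carry CD8 and read peptide on MHC. In mice the γ locus holds separate cassettes, in each of which one or a few V segments join a J segment next to their own C gene, whereas the δ segments lie inside the α locus and share a single C gene. RNA of γ and δ C genes can also come from cells that rearranged the locus without using the product, and from other lymphocytes. Such RNA in these CD8+ fractions is therefore no count of γδ T cells.

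The segments lie on 2 chromosomes of the mm10 (GRCm38) build, and coordinates and sequences are from GENCODE M21. The cassette of Tcrg-C1 (chr13:19214103-19217024, + strand) holds Tcrg-V7 (chr13:19178024-19178492), Tcrg-V4 (chr13:19184974-19185506), Tcrg-V6 (chr13:19190356-19190929) and Tcrg-V5 (chr13:19192278-19192725), all on the + strand. Tcrg-V3 (chr13:19242845-19243301) precedes Tcrg-C3 (chr13:19260884-19263528) on the + strand. Trgv2 (chr13:19336573-19337167) and Tcrg-C2 (chr13:19304649-19307551) lie on the - strand, and Tcrg-C4 (chr13:19344558-19352756) lies on the + strand. The δ segments are Trdv1 (chr14:53881612-53882217), Trdv2-1 (chr14:53946073-53946660), Trdv2-2 (chr14:53960944-53961602), Trdv4 (chr14:54074905-54075515) and Trdc (chr14:54142851-54148868) on the + strand, and Trdv5 (chr14:54148662-54149294) on the - strand.

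The C genes are shown first because the values below are split among them. A stretch of 90 coding bases from the first C exon of each gene is given 5′ to 3′, and capitals mark bases that differ from Tcrg-C1 in the alignment.
Tcrg-C1: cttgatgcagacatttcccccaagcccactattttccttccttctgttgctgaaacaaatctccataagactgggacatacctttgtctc
Tcrg-C2: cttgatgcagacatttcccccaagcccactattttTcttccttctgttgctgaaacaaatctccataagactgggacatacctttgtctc
Tcrg-C3: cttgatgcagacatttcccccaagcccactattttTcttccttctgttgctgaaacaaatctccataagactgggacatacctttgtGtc
Tcrg-C4: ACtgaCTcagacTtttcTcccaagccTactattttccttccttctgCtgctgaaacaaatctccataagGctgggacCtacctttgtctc

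In this stretch Tcrg-C2 differed from Tcrg-C1 at 1 base, Tcrg-C3 at 2 and Tcrg-C4 at 10. Over the aligned coding bases Tcrg-C1 was 97.4% identical to Tcrg-C2 and 96.8% identical to Tcrg-C3. The longest stretches shared with Tcrg-C1 were 104 bases in Tcrg-C2 and 122 bases in Tcrg-C3. No window of 150 bases, the read length, was common to any pair of γ C genes.

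The V segments were told apart by their own sequence. The last 45 bases of the segments on which the results turn are given 5′ to 3′, and capitals mark the codon of the conserved cysteine that precedes the join to J or D.
Tcrg-V4: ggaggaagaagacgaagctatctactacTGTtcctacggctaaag
Tcrg-V6: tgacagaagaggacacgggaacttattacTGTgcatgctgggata
Tcrg-V5: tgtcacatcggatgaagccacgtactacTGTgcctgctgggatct
Tcrg-V3: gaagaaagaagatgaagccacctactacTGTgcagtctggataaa
Trgv2: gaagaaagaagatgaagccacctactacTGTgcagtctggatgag
Tcrg-V1: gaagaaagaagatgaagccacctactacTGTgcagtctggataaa
Trdv4: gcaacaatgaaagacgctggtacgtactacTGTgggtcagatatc
Trdv5: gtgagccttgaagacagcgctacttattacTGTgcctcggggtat
Trdv2-1: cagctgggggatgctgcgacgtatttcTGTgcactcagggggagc
Trdv2-2: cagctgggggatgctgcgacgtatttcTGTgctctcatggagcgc

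Tcrg-V3 and Tcrg-V1 were identical over these 45 bases. Tcrg-V3, Trgv2 and Tcrg-V1 formed a family with 94.6 to 95.7% identity between pairs, and the other pairs of γ V segments shared 53.8 to 72.8%. Trdv2-1 and Trdv2-2 were 92.8% identical, and 72 of 199 windows of 150 bases were common to both, so FPKM of each depends on how shared fragments were divided. The other pairs of δ V segments shared 51.5 to 60.1%. Trdc and Trdv5 overlap on opposite strands by 207 bases, which is 47.3% of the Trdv5 transcript, and the counting did not use the strand, so their values cannot be fully told apart.

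Values are FPKM, fragment values scaled by transcript length and library depth, as estimated by the authors. Levels of different segments can be set side by side only roughly. The V segments are 309 to 491 bases long and Trdc 3865 bases, and some segments share or overlap sequence. Of the 25 members, 14 had a mean of at least 1 FPKM over the 8 libraries and were tested. Another 9 were listed at 0 in every library: the 4 Trgj, 2 Trdj and 2 Trdd segments, which are 11 to 61 bases long, and Trdv3. The remaining 2 were below the filter. Tcrg-C3, the C gene of the Tcrg-V3 cassette, read 0.348, 1.52, 0.962 and 1.06 FPKM in flow-through replicates 1 to 4 and 0.901, 0.566, 1.41 and 0.803 FPKM in the enriched replicates. Trdv2-1 read 0.451, 0.434, 0 and 0 FPKM in flow-through libraries and 6.57, 0, 0 and 0 FPKM in enriched libraries. Both fractions overlapped for these 2 segments.

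Library facts bear on every value. Summed FPKM per library was 656715 to 711678, and replicates of one fraction correlated with r of 0.943 to 0.987 across genes. Flow-through replicate 1 had the lowest T-cell RNA, with Trac, the α chain constant gene, at 334 FPKM where flow-through replicates 2 to 4 had 545 to 600 FPKM and enriched replicates had 700 to 742 FPKM. The summed CD3 chains were 502.5 to 953.5 FPKM in the flow-through and 920.9 to 967.4 FPKM in the enriched libraries. Cd8a and Cd8b1, which define the labelled cells, were present in all libraries (summed 515 to 990 FPKM and 935.5 to 1063 FPKM). In bulk RNA, fewer cells of a type and less RNA per cell cannot be told apart.

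Most tested segments read higher in the enriched libraries. In limma on log2(FPKM + 1), adjusted by Benjamini-Hochberg over 12166 genes, 6 of 14 were higher at an adjusted p under 0.05 and 0 were lower (0 at an unadjusted p under 0.05). Among all genes tested 14.1% were higher and 13.7% lower by the same rule. The 6 were Trdc, Trdv4, Trdv5, Tcrg-V4, Tcrg-V5 and Tcrg-V6. Tcrg-V5 and the uncalled Tcrg-V7 reached the filter only through the enriched libraries, with flow-through means of 0.349 and 0.901 FPKM. The log2 fold change was above 0 for 13 of 14 segments, with a median of 1.00 beside -0.02 for all genes. The enriched library was the higher one in all 4 mice for 9 of 14 segments, against 29.2% of all genes. All 4 enriched values lay above all 4 flow-through values for 3 of 14 segments, Trdv4, Tcrg-V5 and Tcrg-C4, against 16.4% of all genes. Without flow-through replicate 1, which stands apart in T-cell RNA, 3 of 14 segments were called higher, beside 14.1% of all genes. The count was also 3 without flow-through replicate 3 (9.49% of all genes) or enriched replicate 2 (9.24%), 3 (9.87%) or 4 (9.28%).

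**Figure D1:**
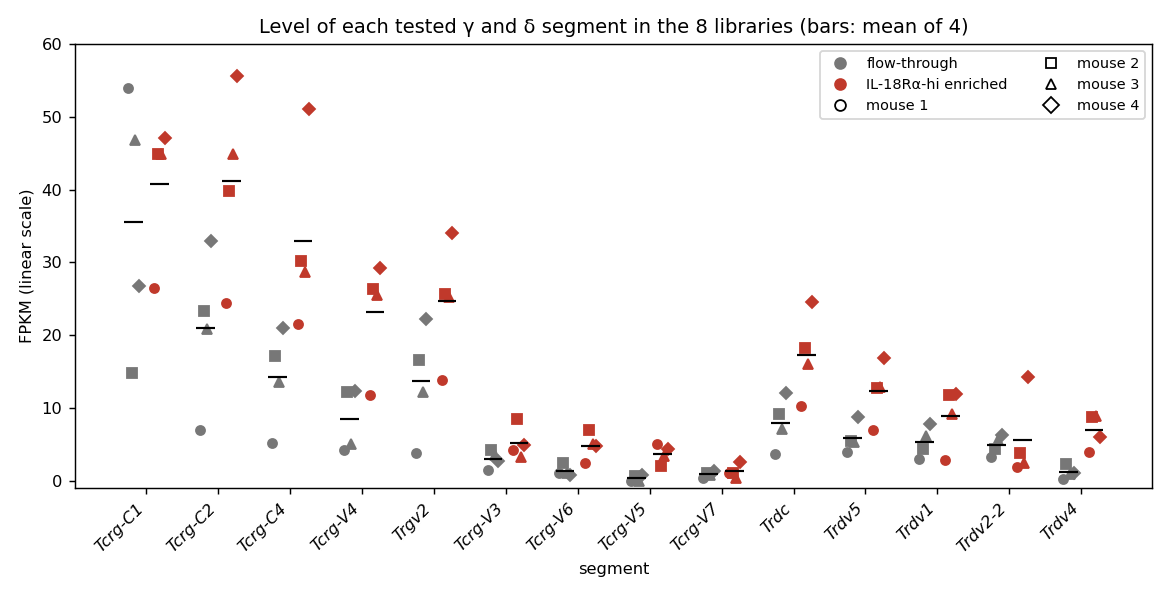
FPKM (linear axis) of the 14 tested segments in each library, with γ C and V segments on the left and δ segments on the right, flow-through in grey and enriched in red, symbols for the mice and a bar at the mean of 4. Tcrg-C1 spreads from 14.8 to 53.9 FPKM in the flow-through, and most other segments sit higher in red.

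Both fractions came from the same mice. Entering the replicate number, taken as the mouse, as a block raised the count to 10 of 14 higher. With it, 22.2% of all genes were higher. The 4 segments added by the block were Tcrg-C2, Tcrg-C4, Trgv2 and Tcrg-V3. Dividing each library by its level of 10 pan-T-cell genes moved the median change over all genes by -0.33 on the log2 scale, to -0.35, and left 4 of 14 called (Trdv4, Tcrg-V4, Tcrg-V5 and Tcrg-V6), beside 4.56% of all genes. With both, 8 of 14 were called, beside 5.33% of all genes. The 10 scaling genes were not even between the fractions. Their median log2 fold change before scaling was 0.38, and 2 of 10 were called higher, beside 14.1% of all genes. The other settings gave 3 of 16 with no filter (7.32% of all genes), 3 of 9 with a filter of at least 5 FPKM (14.3%), 7 of 14 with median-of-ratios scaling (14.7%) and 5 of 14 with a pseudocount of 0.1 (14%), where Trdc had a limma adjusted p of 0.0515.

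**Figure D2:**
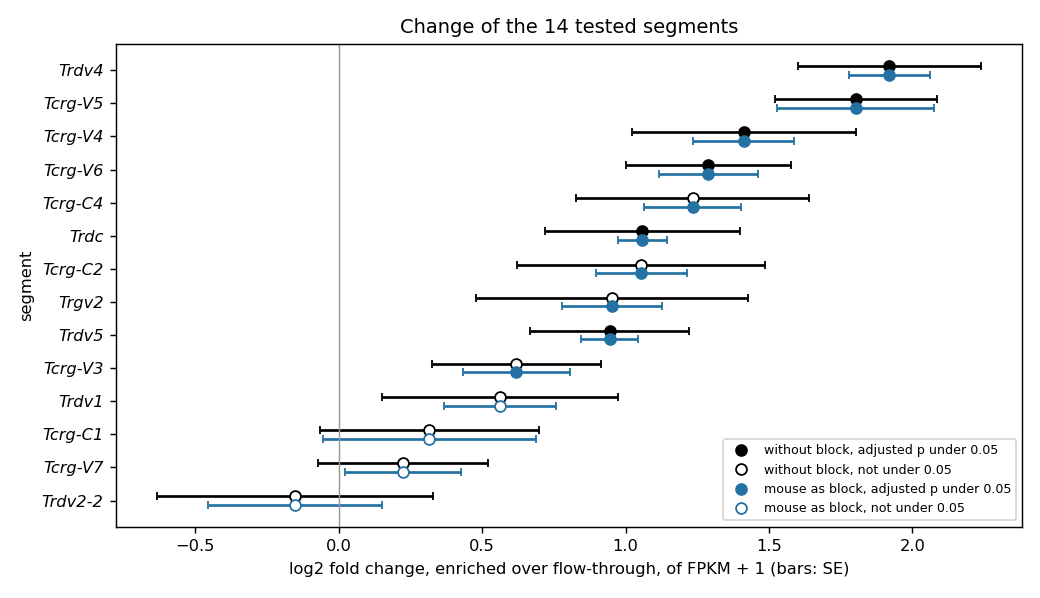
Log2 fold change of FPKM + 1 (enriched over flow-through) with its SE from limma for the 14 tested segments, without a block in black and with the mouse as a block in blue, filled where the adjusted p is under 0.05. The values run from -0.15 for Trdv2-2 to 1.92 for Trdv4, and 10 segments are filled in blue.

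Trdc encodes the only constant region of the δ chain. It read 3.67, 9.18, 7.18 and 12 FPKM in flow-through replicates 1 to 4 and 10.3, 18.3, 16.1 and 24.6 FPKM in the enriched replicates. Within each mouse the enriched library was the higher, by 2.81, 1.99, 2.24 and 2.05 times, although the ranges of the fractions overlapped between mice. Its limma log2 fold change, 1.06 ± 0.34 (SE), had an adjusted p of 0.0485 without the block and 0.000357 with it. Without the block, the call was held without flow-through replicate 4 or enriched replicate 1. It was lost when any of the other 6 libraries was left out (limma adjusted p up to 0.122). With T-cell scaling the Trdc change was 0.74, and its limma adjusted p was 0.0761 without the block and 0.0216 with it.

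The γ C genes are each tied to a cassette of V and J segments. Tcrg-C2 read 6.99, 23.3, 20.9 and 32.9 FPKM in flow-through libraries and 24.4, 39.8, 44.8 and 55.5 FPKM in enriched libraries. Tcrg-C4 read 5.13, 17.1, 13.6 and 21 FPKM in flow-through libraries and 21.6, 30.2, 28.7 and 51.1 FPKM in enriched libraries. Both were the higher in the enriched library of all 4 mice, and the fractions overlapped for Tcrg-C2 and did not for Tcrg-C4. The limma log2 fold change was 1.06 ± 0.43 (SE) for Tcrg-C2, with an adjusted p of 0.1 without the block and 0.00273 with it. For Tcrg-C4 the limma log2 fold change was 1.23 ± 0.41 (SE), with an adjusted p of 0.052 without the block and 0.00202 with it.

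Tcrg-C1 had the highest mean FPKM over the 8 libraries of all members and did not show this order. It read 53.9, 14.8, 46.8 and 26.8 FPKM in flow-through replicates 1 to 4 and 26.5, 44.9, 45 and 47.0 FPKM in the enriched replicates. Flow-through replicate 1 exceeded every enriched library and flow-through replicate 3 all but enriched replicate 4. The enriched library was the higher in 2 of 4 mice. Limma put the log2 fold change at 0.32 ± 0.38 (SE) with an adjusted p of 0.563, and the change turned to -0.03 without flow-through replicate 2. With T-cell scaling it was -0.04, which is 0.30 above the median of all genes in that fit, against 0.33 above it without scaling.

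The 4 V segments of the same cassette did not follow Tcrg-C1 in the flow-through. Their summed FPKM was 5.67, 16.4, 6.998 and 15.2 in flow-through libraries and 20.4, 36.4, 34.4 and 41.0 in enriched ones. As a percentage of Tcrg-C1 this was 10.5%, 110%, 14.9% and 56.9% in flow-through libraries and 77.0%, 81.1%, 76.6% and 87.2% in enriched ones. The ratio was thus nearly even over the enriched libraries and lowest in the flow-through libraries with the most Tcrg-C1. For comparison, Trgv2 was 54.1 to 71.2% of Tcrg-C2 in the flow-through and 56.3 to 64.7% in the enriched libraries. Tcrg-V1, the V segment of the Tcrg-C4 cassette, was 95.8%, 29.5%, 69.5% and 64.6% of Tcrg-C4 in flow-through replicates 1 to 4 and 66.0 to 87.6% in the enriched libraries, so this ratio also spread more in the flow-through. These ratios were examined after the values of Tcrg-C1 had been seen, and they carry no test.

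Erythroid RNA also varied widely over the flow-through libraries. Hba-a1, an α globin gene of red cells, read 507, 72.2, 244 and 90.6 FPKM in flow-through replicates 1 to 4 and 478, 46.5, 163 and 55.0 FPKM in the enriched replicates. The flow-through libraries had the same order for Hba-a1 and Tcrg-C1, whereas Hbb-bs and Alas2 were higher in replicate 2 than in replicate 4. Enriched replicate 1 had the most Hba-a1 of its fraction and the least Tcrg-C1. None of the 4 erythroid markers passed the test (limma adjusted p of 0.414 to 0.838), and 3 were lower with the block (22.7% of all genes). Their summed level was 158.7 to 973.8 FPKM in the flow-through and 88.7 to 914.1 FPKM in the enriched libraries. Their part in the Tcrg-C1 values was not tested.

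**Figure D3:**
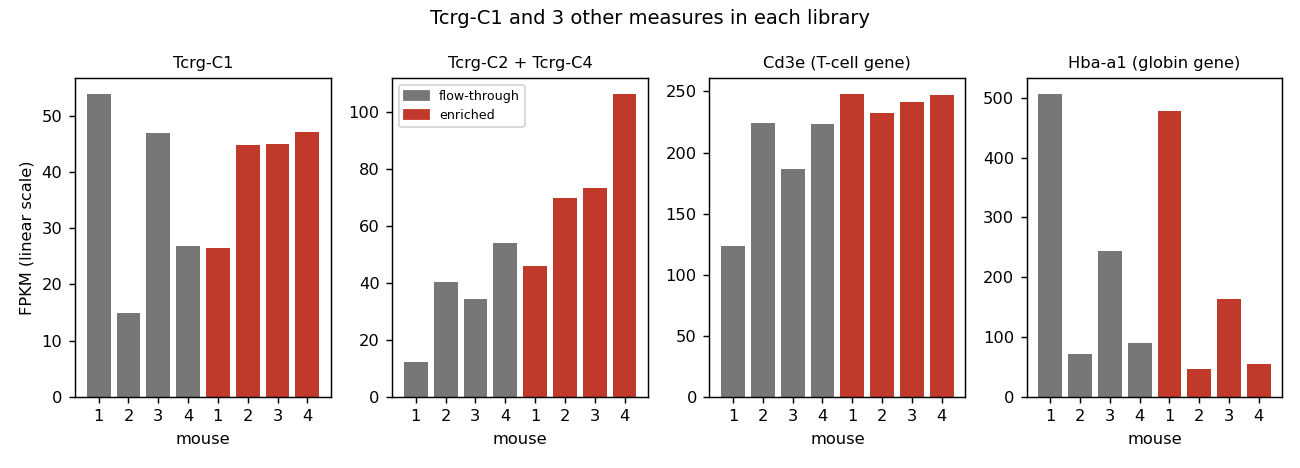
FPKM (linear axes from 0) of Tcrg-C1, of Tcrg-C2 and Tcrg-C4 summed, of the T-cell gene Cd3e and of the globin gene Hba-a1 in each of the 8 libraries, numbered by mouse, flow-through in grey and enriched in red. Flow-through replicate 1 is the highest library for Tcrg-C1 and Hba-a1 and the lowest for the other 2 measures.

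Among the V segments of the Tcrg-C1 cassette, Tcrg-V4 had the highest FPKM. It read 4.20, 12.2, 5.10 and 12.4 FPKM in flow-through libraries and 11.8, 26.3, 25.5 and 29.2 FPKM in enriched libraries. Only enriched replicate 1 fell within the flow-through range. Its limma log2 fold change, 1.41 ± 0.39 (SE), had an adjusted p of 0.0287 without the block and 0.00141 with it. Without the block, the call was lost without flow-through replicate 1 or 3 or without enriched replicate 2, 3 or 4 (limma adjusted p of 0.0529 to 0.0814).

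Tcrg-V6 and Tcrg-V5 encode chains known from cells that leave the fetal thymus for barrier tissues, where Tcrg-V5 marks the γδ T cells of the epidermis. Tcrg-V6 read 1.08, 2.43, 1.11 and 0.800 FPKM in flow-through libraries and 2.41, 6.96, 5.11 and 4.83 FPKM in enriched libraries. Tcrg-V5 was listed at 0 in flow-through replicates 1 and 3 and read 0.649 and 0.748 FPKM in replicates 2 and 4, against 5.09, 1.96, 3.41 and 4.37 FPKM in the enriched libraries. The fractions did not overlap for Tcrg-V5, and for Tcrg-V6 enriched replicate 1 fell just below flow-through replicate 2. The limma log2 fold change was 1.29 ± 0.29 (SE; adjusted p = 0.0128) for Tcrg-V6 and 1.80 ± 0.28 (SE; adjusted p = 0.00361) for Tcrg-V5. Both calls held when each library was left out in turn, in 8 of 8 fits. Tcrg-V5, however, was tested only because its enriched values carried it over the filter. Tcrg-V7, known from intraepithelial cells of the gut, read 0.390, 1.12, 0.790 and 1.30 FPKM in flow-through libraries and 1.12, 1.14, 0.373 and 2.64 FPKM in enriched libraries, and limma gave a log2 fold change of 0.22 ± 0.30 (SE) at an adjusted p of 0.597.

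The related V segments of the other cassettes read as follows. Trgv2, which joins the Tcrg-C2 gene, read 3.78, 16.6, 12.2 and 22.3 FPKM in flow-through libraries and 13.8, 25.7, 25.3 and 34.1 FPKM in enriched libraries, higher in all 4 mice with overlapping ranges. Its log2 fold change was 0.95 ± 0.48 (SE), with a limma adjusted p of 0.165 without the block and 0.00572 with it. Tcrg-V3 read 1.499, 4.27, 3.50 and 2.75 FPKM in flow-through libraries and 4.19, 8.53, 3.24 and 4.90 FPKM in enriched libraries, higher in 3 of 4 mice. Its log2 fold change was 0.62 ± 0.30 (SE), with a limma adjusted p of 0.148 without the block and 0.0341 with it.

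The V segment of the Tcrg-C4 cassette, annotated as Tcrg-V1 (chr13:19339989-19340454, + strand), carries a predicted-gene name in the deposited table and so is no member. It read 4.91, 5.05, 9.45 and 13.6 FPKM in flow-through libraries and 14.5, 23.6, 25.1 and 33.7 FPKM in enriched libraries, with no overlap. Its mean was 8.25 ± 4.13 FPKM against 24.2 ± 7.87 FPKM (SD, n = 4), and limma gave a log2 fold change of 1.498 ± 0.34 (SE) at an adjusted p of 0.0138.

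Of the δ V segments, Trdv4 had the greatest log2 fold change. Against Tcrg-V5 the order depended on the setting: with a pseudocount of 0.1 the log2 fold change was 2.74 for Trdv4 and 3.67 for Tcrg-V5. Its chain is the known partner of Tcrg-V5 and Tcrg-V6 chains. It read 0.240, 2.28, 0.984 and 1.05 FPKM in flow-through libraries and 4.02, 8.71, 8.95 and 6.03 FPKM in enriched libraries, with no overlap. Limma put the log2 fold change at 1.92 ± 0.32 (SE) with an adjusted p of 0.00444, and the call held in 8 of 8 fits without a library. Trdv4 made up 6.39 ± 4.93% of the summed δ V FPKM in flow-through libraries and 20.2 ± 6.34% in enriched ones (SD, n = 4), the higher share in all 4 mice with overlapping ranges.

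Trdv5 read 3.92, 5.46, 5.29 and 8.82 FPKM in flow-through libraries and 6.94, 12.7, 12.9 and 16.8 FPKM in enriched libraries. The enriched library was the higher in all 4 mice, and the ranges overlapped. Its limma log2 fold change, 0.94 ± 0.28 (SE), had an adjusted p of 0.0357 without the block and 0.00081 with it. The call was lost with T-cell scaling (limma adjusted p of 0.102 without the block and 0.0607 with it). Without the block and scaling, it was held without flow-through replicate 4 or enriched replicate 1. It was lost without any of the other 6 libraries (limma adjusted p of 0.061 to 0.0933).

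Trdv1 and Trdv2-2 showed no change that passed the test. Trdv1 read 3.03, 4.35, 6.17 and 7.81 FPKM in flow-through libraries and 2.85, 11.8, 9.20 and 11.9 FPKM in enriched libraries, and limma gave a log2 fold change of 0.56 ± 0.41 (SE) at an adjusted p of 0.33. Without enriched replicate 1 the log2 fold change of Trdv1 was 0.97 and its limma adjusted p was 0.0346. Trdv2-2 read 3.28, 4.40, 5.61 and 6.25 FPKM in flow-through libraries and 1.87, 3.77, 2.48 and 14.3 FPKM in enriched libraries. Enriched replicate 4 was the highest of the 8 libraries, and the enriched library was the lower in the other 3 mice. Limma put the log2 fold change at -0.15 ± 0.48 (SE) with an adjusted p of 0.834. Summed with its near-identical copy Trdv2-1, it read 3.73, 4.83, 5.61 and 6.25 FPKM in flow-through replicates 1 to 4 and 8.44, 3.77, 2.48 and 14.3 FPKM in enriched replicates. This sum was the higher in the enriched library of 2 of 4 mice, with a log2 difference of 0.21.

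Together, the γ segments summed to 77.4, 94.0, 105 and 122 FPKM in flow-through libraries and 112, 186, 183 and 234 FPKM in enriched libraries. The δ segments summed to 14.6, 26.1, 25.2 and 35.9 FPKM in flow-through libraries and 32.5, 55.2, 49.6 and 73.7 FPKM in enriched libraries. Both sums were the higher in the enriched library of all 4 mice while the ranges of the fractions overlapped between mice. The enriched library held 1.97 to 2.23 times the δ sum of the flow-through in each mouse, and 1.45 to 1.98 times the γ sum. The log2 difference was 1.03 for the δ sum and 0.81 for the γ sum, and 0.68 and 0.44 with T-cell scaling. Mean sums were 99.6 ± 18.8 against 178.8 ± 50.5 FPKM for γ and 25.5 ± 8.72 against 52.8 ± 17.0 FPKM for δ (SD, n = 4). A sum over chosen members carries no test.

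The sums were also split into V and C segments. The γ V segments summed to 27.8 ± 13.6 FPKM in flow-through libraries and 63.0 ± 17.8 FPKM in enriched ones, with a log2 difference of 1.26. The γ C genes summed to 71.8 ± 12.4 and 115.8 ± 33.2 FPKM, with a log2 difference of 0.65, which was 1.15 without Tcrg-C1 and 0.29 with T-cell scaling. The δ V segments summed to 17.5 ± 5.33 and 35.5 ± 11.1 FPKM, with a log2 difference of 0.98, near that of Trdc. Trdv5, which overlaps Trdc, made up 33.6 ± 3.49% and 34.6 ± 3.00% of the δ V sum, so these measures are not fully separate.

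**Figure D4:**
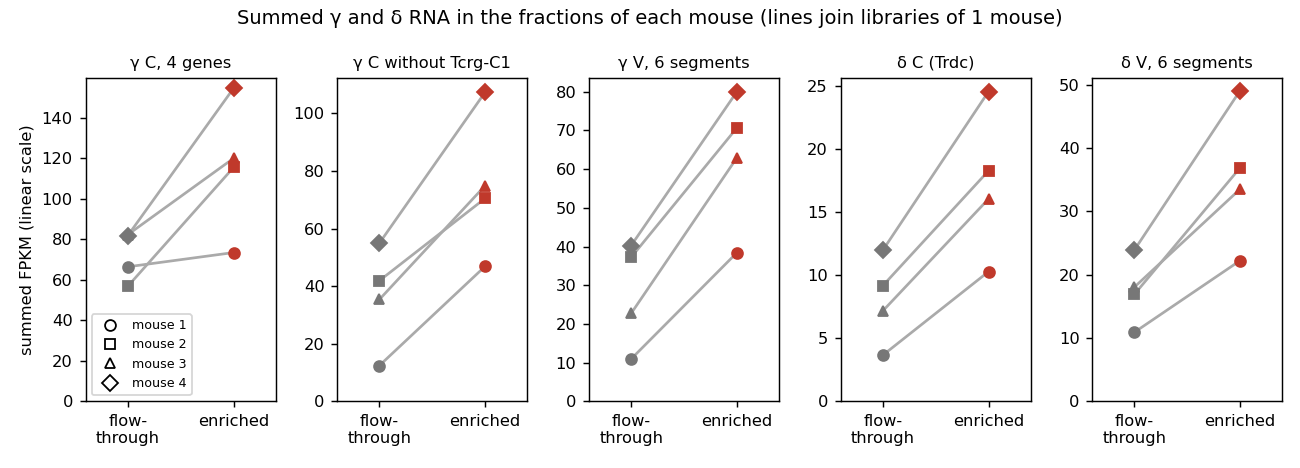
Summed FPKM (linear axes from 0) of the γ C genes, the γ C genes without Tcrg-C1, the γ V segments, Trdc and the δ V segments in both fractions, with a line for each of 4 mice. Every line rises, and the line of mouse 1 for the γ C genes is nearly flat until Tcrg-C1 is left out.

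Ratios to Trac were taken within each library, so that no scaling of the library changes them. Trdc was 1.10%, 1.60%, 1.32% and 1.998% of Trac in flow-through libraries and 1.39%, 2.62%, 2.25% and 3.43% in enriched ones. The ratio was the higher in the enriched library of all 4 mice with overlapping ranges. The difference of mean log2 ratios was 0.65 (exact two-sided permutation p = 0.1143, adjusted over 2 ratios 0.2286; n = 4). The smallest p that 70 arrangements allow is 0.02857, and a sign flip within mice gave an exact p of 0.125, the smallest it can give. The γ C genes summed to 14.6 ± 4.14% of Trac in flow-through libraries and 16.2 ± 4.80% in enriched ones (log2 difference 0.14, exact two-sided permutation p = 0.6, adjusted 0.6; n = 4). Without Tcrg-C1 these were 6.67 ± 2.26% and 10.5 ± 3.56%, the higher in all 4 mice (log2 difference 0.66, exact permutation p = 0.1714; n = 4).

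Genes that work with the γδ receptor were taken from lists. Of all genes tested, 14.1% were called higher and 13.7% lower, and 22.2% and 22.7% with the block. The CD3 chains Cd3d, Cd3e, Cd3g and Cd247, which carry the signal of both kinds of receptor, had 0 of 4 called in either direction (log2 fold changes of 0.11 to 0.39, 0 of 4 with the block). Of the αβ constant genes, Trbc2 was called higher (limma log2 fold change 0.62, adjusted p = 0.037), and Trac and Trbc1 had limma adjusted p of 0.0567 and 0.0517, with all 3 of 3 higher with the block. H2-T10 and H2-T22, nonclassical MHC molecules that some γδ receptors bind, had 0 of 2 called and log2 fold changes of -0.17 and 0.20. Of the other 5 ligands and selecting elements, none reached the filter, and Btnl6 and Skint1 were listed at 0 throughout. Of the recombination genes, Rag1 and Rag2 were below the filter, and Dntt had a log2 fold change of -0.48 (limma adjusted p = 0.0991, and 0.0194 with the block).

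Genes known from γδ T cells that make interleukin-17 had 8 of 9 tested members called higher and 0 lower, with a median log2 fold change of 1.5, beside 14.1% of all genes higher and a median of -0.02. Blk, a Src-family kinase, had a limma log2 fold change of 1.86 (adjusted p = 0.00514), Cd163l1, a scavenger receptor, 1.65 (adjusted p = 0.002), and Il23r, the interleukin-23 receptor, 1.41 (adjusted p = 0.00427). Il23r reached the filter only through the enriched libraries, with a flow-through mean of 0.316 FPKM. Il17a and Il17f themselves stayed below the filter, with 0.31 ± 0.34 and 0.25 ± 0.12 FPKM in the flow-through and 0.82 ± 0.27 and 0.46 ± 0.21 FPKM in the enriched libraries. The list is shared with other type 17 lymphocytes.

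Of the 5 interferon-type genes 3 were called higher, beside 14.1% of all genes. Tbx21 (T-bet) was 1 of the 3, with a limma log2 fold change of 1.70 (adjusted p = 0.00065). Cd27 and Eomes were not called (log2 fold changes of 0.16 and 0.08). The list is shared with CD8+ αβ T cells. Of 7 regulators of the γδ lineage 3 were higher and 2 lower, beside 14.1% and 13.7% of all genes. Maf, a factor of type 17 γδ cells, had a limma log2 fold change of 1.71 (adjusted p = 0.000463), Zbtb16, which encodes PLZF, 1.04 (adjusted p = 0.0114), and Egr3, induced by receptor signals, 0.73 (adjusted p = 0.0251). Sox4 (-1.02, limma adjusted p = 0.00683) and Etv5 (-0.43, limma adjusted p = 0.047) were lower. Sox13 had a log2 fold change of 0.39 (limma adjusted p = 0.125, and 0.0421 with the block), and Id3 0.23 (limma adjusted p = 0.457). Zbtb16 and Sox13 reached the filter only through the enriched libraries, with flow-through means of 0.405 and 0.787 FPKM.

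Markers of some other cells moved with the fractions, where 14.1% of all genes were called higher and 13.7% lower. The 5 tested of 6 NK-cell markers were all called higher, and the summed list was 3.39 to 10.9 FPKM in the flow-through and 21.9 to 73.8 FPKM in the enriched libraries. Ncr1, the NK receptor NKp46, was lowest in replicate 1 of each fraction, as Trdc was, and highest in enriched replicate 4. The NK-cell markers Klra8 and Klri2, the myeloid marker Adgre1 and Cd4 reached the filter only through the enriched libraries. Of 4 myeloid markers 3 were called higher (summed 106.1 to 371.7 and 354.9 to 852.3 FPKM), and Cd4 was at 0.31 to 1.28 FPKM and 1.80 to 7.90 FPKM, higher in the enriched libraries (limma log2 fold change 1.46, adjusted p = 0.0168). Of 4 B-cell markers 0 were called (summed 19.1 to 52.3 and 25.8 to 63.2 FPKM). Their part in the values of the γ and δ segments was not tested.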

How the data were processed

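RNA of 8 libraries (TruSeq stranded mRNA, 150-base paired ends) was deposited as FPKM. Per the labels, the authors filtered low-quality reads, mapped to mm10 with TopHat and estimated FPKM with Cufflinks 2.1.1, correcting for multiple mapping and fragment bias, with other options at defaults, which do not use strand. The annotation release was not given in the sources used here. FPKM hold no counts, so no depth or counting interval is given.

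Members and gene lists were chosen with earlier results of these data known. Groups and replicate numbers came from the labels. Differences were tested with limma 3.58.1 (R 4.3.3, variance trend) on log2(FPKM + 1), which understates changes of low genes, over all genes whose mean reached 1 FPKM, with Benjamini-Hochberg adjustment and a threshold of 0.05, without a block. The code was tested on simulated data. Ratios were compared by exact permutation with scipy 1.17.1. All tested members were named. Same-numbered libraries were taken as from 1 mouse. Their deviations from the fraction means correlated at 0.66, 0.589, 0.308 and 0.471. Those of differently numbered libraries correlated at -0.60 to 0.41. Identifiers matched GENCODE M21 for 98.9%, and 27 date names were replaced from it. Alternatives were another pseudocount, filter or scaling, the block, transcript-length weights, another ratio denominator and leaving out each library. T-cell scaling with the block, the sums and ratios without Tcrg-C1 and the addition of Tcrg-V1 were chosen after seeing the data. Protein sequences of the segments were not used here. Counts over gene lists include an item that is not reported here.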

Additional observations from a re-analysis of the deposited data

Results flagged for a closer look

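In 38 sets of 4 libraries examined for a single value far from the other 3, 2 were found, and chance gives about 1.9. Trdv2-2 read 14.3 FPKM in enriched replicate 4, against 1.87 to 3.77 FPKM in the other enriched libraries. Tcrg-C1 read 26.5 FPKM in enriched replicate 1, against 44.9 to 47.0 FPKM in the other enriched libraries.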

How the results depend on the processing

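The count of members higher was 3 of 16 without a filter (7.32% of all genes), 3 of 9 with a filter of at least 5 FPKM (14.3%), 10 of 14 with the replicate block (22.2%), and 3 to 7 of 14 when each library was left out in turn (9.24 to 14.8%). The block, which leaves the log2 fold changes as they are in this balanced design, changed only the calls of Tcrg-C2, Tcrg-C4, Trgv2 and Tcrg-V3. The log2 difference of the summed γ RNA was 1.21 without Tcrg-C1, and that of the summed γ C RNA was 1.15 without Tcrg-C1 and 0.29 with T-cell scaling. Over the fits without 1 library, the log2 difference ranged from 0.66 to 1.02 for the γ sum, 0.50 to 0.85 for γ C, 0.89 to 1.48 for γ V, 0.80 to 1.24 for the δ sum, 0.77 to 1.27 for Trdc and 0.78 to 1.18 for δ V. It ranged from 0.46 to 0.89 for Trdc over Trac and from -0.036 to 0.36 for γ C over Trac, where -0.036 came from leaving out flow-through replicate 2 and -0.018 from leaving out enriched replicate 4. The log2 fold change ranged from -0.67 to 0.13 for Trdv2-2, -0.023 to 0.45 for Tcrg-V7 and -0.033 to 0.56 for Tcrg-C1 over these fits. Its direction turned for Trdv2-2 without enriched replicate 1 (0.13) or 3 (0.042), for Tcrg-V7 without enriched replicate 4 (-0.023), and for Tcrg-C1 without replicate 2 of the flow-through (-0.033) and with T-cell scaling with or without the block (-0.044). The cause was not tested.

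Values of near-identical segments and of Trdc with Trdv5 depend on how fragments were assigned. With 4 mice the exact tests could not pass 0.02857, and with sign flips 0.125. FPKM give no depth, so a listing at 0 is not a limit on expression.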

Other observations

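V segments of the α locus whose names carry a dv suffix can serve in either chain. There were 10, of which 9 reached a mean of 1 FPKM, and they were not members. Summed, they read 41.0, 71.1, 69.8 and 70.01 FPKM in flow-through replicates 1 to 4 and 93.3, 99.7, 79.6 and 102 FPKM in the enriched replicates, the higher in all 4 mice. Their means were 63.0 ± 14.7 and 93.6 ± 9.98 FPKM (SD, n = 4), a log2 difference of 0.59, and the data do not tell which chain they served.

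Tcrg-C1 was 81.2%, 26.1%, 56.9% and 32.7% of the summed γ C FPKM in flow-through replicates 1 to 4, and 35.7 ± 3.70% in the enriched libraries. Tcrg-V5 was 0.90 ± 1.04% of the summed γ V FPKM in flow-through and 6.73 ± 4.52% in enriched libraries, with no overlap. Trdv2-2 was 28.3 ± 2.63% and 13.8 ± 10.3% of the δ V FPKM, with overlapping ranges and 29.1% in enriched replicate 4. Its share depends on how fragments were divided between Trdv2-2 and Trdv2-1.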
